A study of Mus musculus with 17 samples.

Results

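The comparison described here is that of estradiol replacement with ovariectomy alone in the healing fracture. It takes 4 of the 17 arrays of the series, which are the mBCSP and the mSSC array of OVX + E2 callus and the mBCSP and the mSSC array of OVX callus, chosen by the treatment and cell type in their labels. The mSSC (mouse skeletal stem cell) and the mBCSP (bone, cartilage and stromal progenitor, downstream of it) were double-sorted from femoral callus on day 7 after a pin-stabilized transverse fracture. The mice were C57BL/6 females, ovariectomized at 8 weeks of age and fractured at 14 weeks after 6 weeks without ovaries. All 4 arrays thus come from ovariectomized, fractured mice, and OVX + E2 mice differed in carrying a subcutaneous pellet that released 0.18 mg of 17β-estradiol continuously from the time of ovariectomy. Callus of sham-operated mice, fractured alike and with their ovaries in place, is represented by 1 mBCSP and 1 mSSC array with titles of the same form, and its values are given beside the comparison. The labels do not say how many mice were pooled for an array, nor whether the mSSCs and mBCSPs of a group came from the same mice.

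Estradiol enters cells and binds the nuclear estrogen receptors alpha and beta (Esr1 and Esr2), which then act on transcription at estrogen response elements or through other DNA-bound factors. In bone it is known for restraining resorption by osteoclasts, large cells of the blood lineage that arise from monocytes under the ligands Csf1 and Tnfsf11 (RANKL), the latter made by osteoblasts and stromal cells. The mSSC gives rise to bone, cartilage and the stroma that supports blood formation. The sort keeps cells that carry alphaV integrin and lack CD45, Ter119 and Tie2, the surface proteins of leukocytes, red cells and endothelium, so transcripts of blood cells are not what the gate selects for.

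Each population gave its own difference, OVX + E2 minus OVX, on the log2 scale of the array signal, where 1 stands for a 2-fold difference. Of 14504 genes tested, 309 were 2-fold or more higher and 153 lower with estradiol in mBCSPs, and 443 higher and 206 lower in mSSCs. Both populations moved the same way past 2-fold for 114 higher genes (0.786% of the genes tested) and 25 lower genes (0.172%), and went opposite ways for 17, namely the 8 higher in mBCSPs and the 9 higher in mSSCs. The 114 genes were 36.9% of those higher in mBCSPs and 25.7% of those higher in mSSCs, while the 25 genes were 16.3% and 12.1% of the lower ones. Without a threshold, 29.3% of genes were higher and 24.9% lower in both populations. These shares are descriptive, since each population holds 1 array per treatment. In the linear model over all 17 arrays (limma), whose error comes from how mSSC and mBCSP arrays differ within groups, 3 genes (0.0207%) passed an adjusted p under 0.05, and 227 (1.57%) higher and 105 (0.724%) lower genes had an unadjusted p under 0.05. An exact permutation test of the 2 arrays against 2 cannot go below p = 0.333.

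The genes higher with estradiol in both populations were to a large extent those of blood cells, and none belonged to a stromal list. Among 164 tested genes of the blood-lineage lists, 43 (26.2%) were 2-fold or more higher in both populations and 0 lower. Their median difference was 0.44 in mBCSPs and 0.67 in mSSCs, against 0.012 and 0.014 for all genes tested. On sorted cells in bulk, fewer cells of a type and less RNA per cell cannot be told apart. Among 221 tested genes of the stromal lists (cartilage, bone, fibrous matrix, tendon, marrow niche, contractile cells, proteases and growth factor pathways), 0 passed 2-fold in both populations in either direction. Stromal genes were higher in both populations for 71 (32.1%) and lower for 67 (30.3%), and their median difference was 0.014 in mBCSPs and 0.0038 in mSSCs. The lists also differed in brightness. On the OVX arrays of mBCSPs and mSSCs, blood-list genes had mean signals of 7.71 and 8.10. Stromal genes had 11.24 and 11.22, and all genes tested 9.43 and 9.41. How far brightness bears on the shares past 2-fold was not tested. Across genes, signals of the 4 arrays correlated with Spearman coefficients of 0.964 to 0.974.

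**Figure D1:**
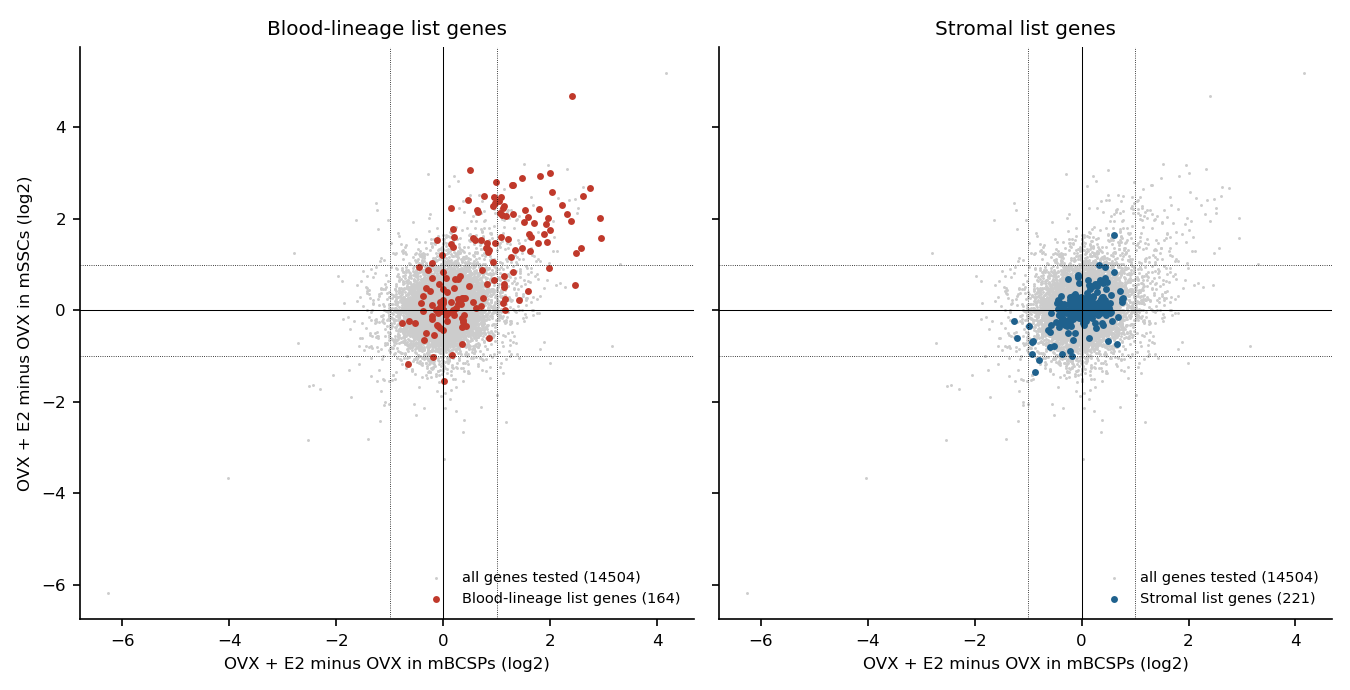
Difference between OVX + E2 and OVX callus in mBCSPs (x axis, log2) and mSSCs (y axis, log2), 1 point per gene, with all 14504 genes tested in grey; dotted lines mark 2-fold. The 164 blood-lineage genes (left, red) spread into the upper right corner, where 43 of them lie past 2-fold in both populations, and the 221 stromal genes (right, blue) stay around 0, with none past 2-fold in both.

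Genes that all or most leukocytes carry gave the clearest example. Of 23 tested, 20 were higher in both populations, 13 of them 2-fold or more, and 0 lower in both. Ptprc, which encodes CD45 itself, read 6.58 on the OVX and 8.80 on the OVX + E2 array of mBCSPs, and 8.31 and 10.62 on those of mSSCs. Estradiol arrays lay above both OVX and sham arrays (7.09 in mBCSPs, 7.77 in mSSCs) within each population, although cells with CD45 on their surface are removed by the gate. The 8 callus arrays outside the comparison ran from 7.09 to 13.53 and thus also held values above those of estradiol. The fitted difference was 2.27 (SE 0.69, limma, adjusted p = 1). Another probe set of Ptprc that reached the filter did not rise, from 7.05 to 6.73 in mBCSPs and from 7.05 to 7.04 in mSSCs. Lcp1, the actin-bundling L-plastin of leukocytes, went from 8.89 to 11.20 in mBCSPs and from 10.08 to 12.18 in mSSCs, with sham at 9.39 and 10.81. Itgb2, the beta2 integrin chain by which leukocytes adhere, differed by 2.0 and 3.0, and Dock2, an activator of Rac in migrating leukocytes, by at least 2.03 and by 2.58. Itgb2 read 7.38 and 7.70 on the OVX and 9.38 and 10.69 on the OVX + E2 arrays of mBCSPs and mSSCs. The fitted differences of 2.50 (SE 0.49) for Itgb2 and 2.30 (SE 0.57) for Dock2 had adjusted p of 0.308 and 0.745.

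Neutrophil genes were higher in both populations for 22 of 28, 2-fold or more for 11, and lower in both for 0. Their median difference was larger in mSSCs (2.17) than in mBCSPs (0.96), each from 1 array per treatment. Cd177, a surface protein of neutrophils, read 6.72 on the OVX and 8.54 on the OVX + E2 array of mBCSPs, and 8.23 and 11.17 on those of mSSCs. S100a8, an abundant calcium-binding protein of neutrophils, stood at 9.42 and 11.22 in mBCSPs and at 11.09 and 13.30 in mSSCs. In both genes the OVX array of mSSCs lay just under the OVX + E2 array of mBCSPs. Ltf, the lactoferrin of neutrophil granules and a known estrogen target in the uterus, differed by 1.48 in mBCSPs (10.09 against 11.57) and 2.89 in mSSCs (10.55 against 13.44), with a fitted difference of 2.19 (SE 0.47, adjusted p = 0.433).

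Macrophage and monocyte genes were higher in both populations for 20 of 24, 2-fold or more for 12, with medians of 1.33 in mBCSPs and 1.34 in mSSCs, closer to each other than those of neutrophil genes. Csf1r, the receptor through which Csf1 maintains macrophages and osteoclast precursors, read 8.44 on the OVX and 10.84 on the OVX + E2 array of mBCSPs, and 8.70 and 10.65 on those of mSSCs. The sham arrays lay between (9.78 and 10.20). C1qa, a subunit of complement C1q made by tissue macrophages, stood at 7.45 and 10.39 in mBCSPs and at 8.51 and 10.52 in mSSCs, with sham at 8.78 and 10.11. Itgam, the integrin CD11b of myeloid cells, was at the floor of the scale (5.95) on the OVX array of mBCSPs, where only a bound can be given, at least 1.93 below its OVX + E2 array. Its mSSC arrays read 7.12 and 9.01. Spi1, which encodes PU.1, a factor that directs myeloid development, differed by 1.27 and 1.17. The fitted differences of Csf1r (2.17, SE 0.66), C1qa (2.47, SE 0.84) and Itgam (1.91, SE 0.52) had adjusted p of 1, 1 and 0.895.

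Promoters of the blood-lineage genes that were higher in both populations are shown because these genes moved together and include the gene of PU.1. RefSeq promoter windows (GRCm38.p6, 250 bases before to 50 after the start) were matched by symbol for 31 of the 43 genes, which gave 38 windows. The letters GAGGAAGT, a core of the site that PU.1 binds, occurred on either strand in 6 of the 38 windows (15.8%), in 0 of the 25 windows of genes lower in both populations, and in 451 of the 14769 windows of all genes tested (3.05%). The 43 genes were drawn from lists of blood cells, and none of the lower genes is on such a list. The other blood-list genes were not counted, so whether the letters go with the difference or with the lists was not tested. Of the 6 windows with the letters 3 follow 5′ to 3′ on the gene's own strand, with the motif in capitals, in each case as its reverse complement ACTTCCTC. They belong to Cd53 (chr3:106790100-106790399, minus strand), a tetraspanin of leukocytes, S100a8 (chr3:90668821-90669120, plus strand) and C1qc (chr4:136892865-136893164, minus strand), another C1q subunit.
Cd53: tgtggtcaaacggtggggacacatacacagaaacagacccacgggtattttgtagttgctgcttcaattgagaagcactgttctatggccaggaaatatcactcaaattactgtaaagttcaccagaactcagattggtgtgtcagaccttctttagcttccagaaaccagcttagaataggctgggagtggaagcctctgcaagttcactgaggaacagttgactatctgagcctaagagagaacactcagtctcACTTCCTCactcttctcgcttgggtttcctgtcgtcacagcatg
S100a8: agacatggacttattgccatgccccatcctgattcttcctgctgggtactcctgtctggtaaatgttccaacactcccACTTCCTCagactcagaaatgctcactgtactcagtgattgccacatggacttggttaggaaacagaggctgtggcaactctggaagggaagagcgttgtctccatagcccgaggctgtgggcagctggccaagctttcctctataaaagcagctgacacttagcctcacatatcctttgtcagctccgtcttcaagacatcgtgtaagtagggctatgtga
C1qc: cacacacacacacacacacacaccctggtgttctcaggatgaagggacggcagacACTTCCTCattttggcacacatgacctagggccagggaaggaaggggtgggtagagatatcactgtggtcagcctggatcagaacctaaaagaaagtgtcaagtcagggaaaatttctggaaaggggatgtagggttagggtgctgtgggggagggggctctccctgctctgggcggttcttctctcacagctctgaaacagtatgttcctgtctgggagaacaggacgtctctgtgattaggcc
Cd53 has the motif 6 bases after its start, S100a8 172 bases and C1qc 195 bases before it. On the arrays Cd53 differed by 1.97 in mBCSPs and 2.01 in mSSCs, S100a8 by 1.80 and 2.21, and C1qc by 1.48 and 1.36. A match of letters is a description of these windows and not a measured binding site. The full estrogen response element, GGTCA and TGACC separated by 3 bases, was found in 3 of the 14769 windows (0.0203%) and in none of the 111 windows of higher or the 25 of lower genes. Its single arm GGTCA occurred in 42.3% of the windows of higher genes, 52% of those of lower genes and 38.7% of all.

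Among the genes of osteoclasts, the bone-resorbing cells that estradiol is known to restrain, 4 of 11 were 2-fold or more higher with estradiol in both populations, 9 were higher and 1 was lower in both. Atp6v0d2, a subunit of the proton pump with which osteoclasts acidify bone and which is needed for their fusion, read 7.03 and 7.14 on the OVX arrays and 9.64 and 9.64 on the OVX + E2 arrays of mBCSPs and mSSCs. The estradiol arrays lay above the 8 callus arrays outside the comparison, which ran from 6.50 to 8.87. A separate probe set of Atp6v0d2 gave differences of 3.27 and 2.19. Acp5, the tartrate-resistant acid phosphatase that marks osteoclasts, went from 10.83 to 12.47 in mBCSPs and from 10.43 to 12.03 in mSSCs, with sham at 10.95 and 10.63. Mmp9, a gelatinase of osteoclasts and neutrophils, differed by 1.95 and 1.5, and Dcstamp, a fusion protein of osteoclast precursors, by 1.09 and by at least 2.09. Ctsk, the collagen-cleaving cathepsin K, differed by only 0.27 and 0.25, and Nfatc1, the master factor of osteoclast formation, by -0.77 and -0.28. The list was therefore not uniform, and by limma Atp6v0d2 (2.55, SE 0.54) had an adjusted p of 0.433 and Acp5 (1.62, SE 0.80) of 1.

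Among the higher genes Igha had the largest difference, and the immunoglobulin genes stood apart from other genes of B cells. Igha, the heavy chain of IgA, read 7.15 on the OVX and 11.31 on the OVX + E2 array of mBCSPs, and 8.16 and 13.34 on those of mSSCs, with sham at 8.70 and 10.22. Igk, the kappa light chain, went from 9.35 to 12.10 and from 11.07 to 13.75. Jchain, which joins IgA and IgM into polymers and is made by plasma cells, did not exceed the floor in either population with OVX and read 8.36 and 10.64 on the OVX + E2 arrays, so that its differences are at least 2.40 and 4.69. Of 19 tested B and plasma cell genes, however, 2 were 2-fold or more higher in both populations, Igk and Jchain, and Ighm, the heavy chain of IgM, was lower (9.02 against 8.37 in mBCSPs, 10.22 against 9.04 in mSSCs). The B cell genes Cd79a (0.61 and 0.05), Pax5 (0.37 and -0.26) and Vpreb3 (-0.38 and -0.02) differed by less than 2-fold. Probe sets of immunoglobulin genes can bind several related transcripts, so the assignment of Igk and Igha to single genes is uncertain. By limma the adjusted p was 0.639 for Igha, 0.745 for Igk and 0.781 for Jchain. The 8 callus arrays outside the comparison reached 11.93 for Igha, 14.64 for Igk and 10.81 for Jchain. Of the OVX + E2 values only that of Igha in mSSCs lay above these.

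Lists of lymphoid cells, red cells and platelets did not share the pattern of the myeloid lists. Of 12 T and NK cell genes 0 were 2-fold higher in both populations, with medians of 0.00 and 0.00. The medians were 0.01 and -0.24 for 13 erythroid genes and 0.05 and -0.06 for 9 megakaryocyte and platelet genes, and 0 passed 2-fold in both populations in either list. Genes of antigen presentation were higher in both populations for 7 of 9 and lower for 0 (medians 0.35 and 0.42), with H2-Aa, an MHC class II chain, at 2.57 and 1.35. Mast cell, basophil and eosinophil genes were higher for 3 of 9 and lower for 1, and blood progenitor genes higher for 3 of 7 and lower for 1. Taking pan-leukocyte, neutrophil and macrophage genes together (75 genes), their mean log2 signal was 8.02 on the OVX and 9.10 on the OVX + E2 array of mBCSPs, and 8.63 and 10.21 on those of mSSCs. Sham callus read 8.43 and 9.07. The 6 callus arrays of the other title forms, none of which is labelled with estradiol, ran from 8.95 to 11.41, a range that holds both OVX + E2 values. Uninjured bone gave 11.88 to 12.57 over 5 arrays, far above all 6 arrays of this title form.

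**Figure D2:**
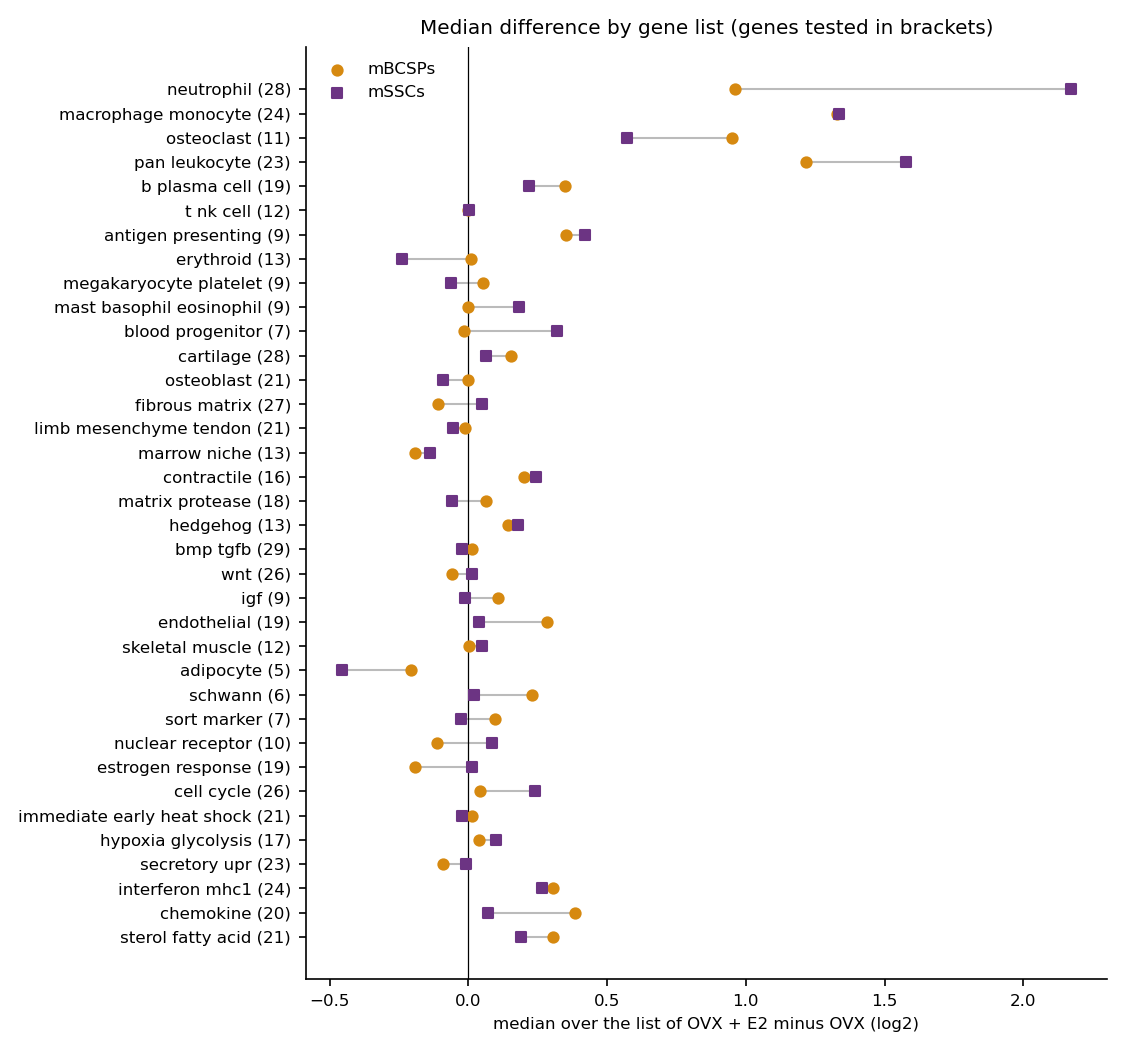
Median difference between OVX + E2 and OVX callus (x axis, log2) over the tested genes of each of the 36 gene lists (y axis, number of genes tested in brackets), with mBCSPs as circles and mSSCs as squares, each from 1 array per treatment. Neutrophil, macrophage, pan-leukocyte and osteoclast lists lie to the right in both populations (0.57 to 2.17), and the stromal lists lie near 0.

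Following the mean of these 75 blood genes across the 13 arrays outside the comparison (r of at least 0.7, a description over arrays that share titles and injury states) held for 13.8% of the genes tested and for 71 of the 114 higher genes, some of which are themselves among the 75. It held for 34 of the 69 higher genes that are on no list, such as Bst1, an ADP-ribosyl cyclase of myeloid and marrow stromal cells. Its signal was 6.62 and 6.66 on the OVX arrays and 9.09 and 9.09 on the OVX + E2 arrays of mBCSPs and mSSCs. The 8 callus arrays outside the comparison ran from 7.69 to 10.34, and the fitted difference was 2.45 (SE 0.36, adjusted p = 0.114). Another probe set of Bst1 that reached the filter went opposite ways, by at least 0.67 in mBCSPs and by -0.86 in mSSCs. Cxcr4, the receptor for the niche chemokine Cxcl12 and named here after its values were seen, went from 8.64 to 10.60 and from 8.47 to 11.64. Fpr2, a receptor for formyl peptides on neutrophils, differed by 2.14 and 2.46, and Clec4a2, a lectin of myeloid cells, by 2.35 and 2.41. Another probe set of Clec4a2 differed by -0.32 and 1.07.

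**Figure D3:**
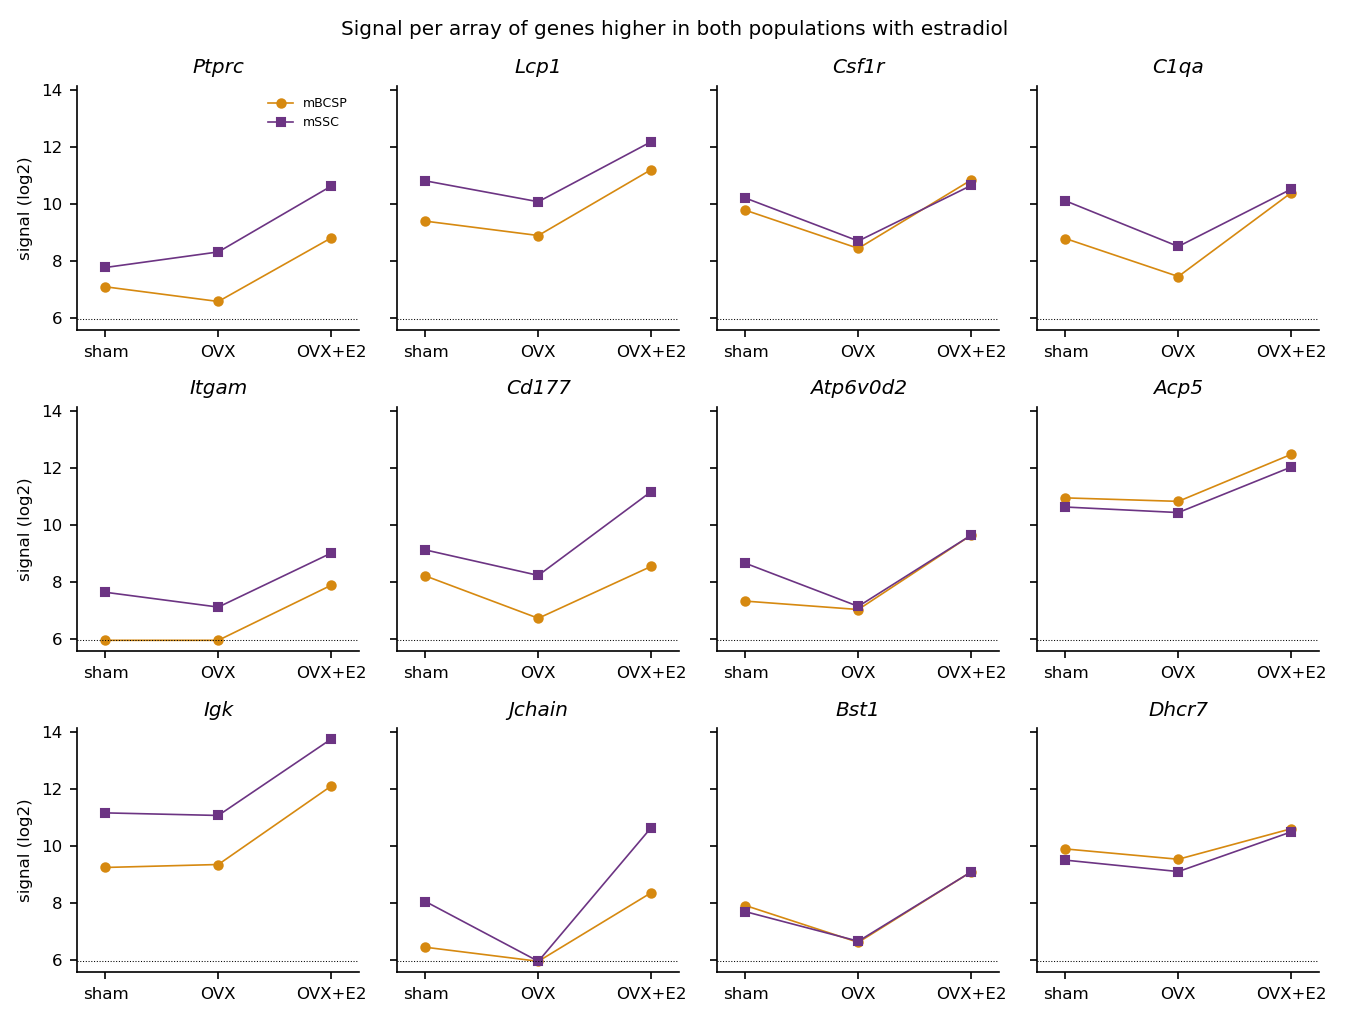
Log2 signal (y axis) of 12 genes higher with estradiol on the sham, OVX and OVX + E2 callus arrays (x axis) of mBCSPs (circles) and mSSCs (squares), 1 array per point; the dotted line is the floor of the scale (5.95). In every panel the OVX + E2 array lies above the OVX array of its population, for Atp6v0d2 at 9.64 in both against 7.03 and 7.14.

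Of the 43 higher genes that did not follow the blood mean, 35 are on no list, 1 is the sterol synthesis gene Dhcr7 and 7 are of the blood lists, namely Atp6v0d2, Acp5, Dcstamp, C1qa, C1qc, Ms4a7 and Csf1r. Negative correlations with the blood mean were found for 19 of the 114. Gm26782, a predicted gene without an assigned function, lay at the floor with OVX in both populations and read 8.57 in mBCSPs and 8.65 in mSSCs with estradiol, with sham at 7.64 and 7.94 and all 8 callus arrays outside the comparison between 6.62 and 9.73. It rose by at least 2.62 and 2.70 and passed the test (fitted difference 2.66, SE 0.28, adjusted p = 0.00786). Brinp3, a secreted protein first described in neurons, went from 8.09 to 10.59 in mBCSPs and from 8.55 to 10.67 in mSSCs, above the 8 callus arrays outside the comparison (6.23 to 8.49), with a fitted difference of 2.31 (SE 0.49, adjusted p = 0.433). Others of this kind, named here after their values were seen, were Ang, a secreted ribonuclease (1.58 and 1.57), Calml4, a calmodulin-like protein (1.5 and 1.90), and Peg10, an imprinted gene (1.11 and 1.03). Peg10 was close to the 2-fold limit, as were Pcp4 (1.04 and 1.44), Rab44 (1.38 and 1.0) and C3ar1 (at least 3.30, and 1.01) inside it and the neutrophil genes Fcnb (0.99 and 2.80) and S100a9 (0.98 and 2.34) outside it.

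Lower genes were fewer, and their differences included the largest of the comparison. Sh3d19, an SH3 adaptor that binds ADAM proteases, fell from 12.21 in mBCSPs and 12.13 in mSSCs with OVX to the floor (5.95) on both OVX + E2 arrays. The fall was by at least 6.26 and 6.18, the sham arrays read 12.10 and 11.77, and the fitted difference was -6.22 (SE 0.65, adjusted p = 0.00786). Its 3 other probe sets were also lower with estradiol but by less, between -1.12 and -3.48, and one of them still read 10.01 and 9.82 on the OVX + E2 arrays. Callus arrays outside the comparison read 7.61 to 12.35, and 1 of the 5 uninjured arrays was at the floor as well. Tceanc2, a protein with a transcription elongation factor domain, fell from 9.14 to 6.61 in mBCSPs and from 9.02 to 6.18 in mSSCs, with sham at 8.93 and 9.10 (fitted difference -2.69, SE 0.33, adjusted p = 0.0259). It was as low, at 6.25, on a callus array without stated surgery or estradiol. The calls of all 3 genes were lost when any 1 of the 4 arrays was left out, which leaves a treatment with a single array, and with the blood gene mean as a covariate, while their fitted differences kept their direction. Gm26782 also lost its call without a floor, Sh3d19 and Tceanc2 without a filter (where Tac1 was called), and Gm26782 and Tceanc2 in a fit limited to the 6 sham, OVX and OVX + E2 arrays titled alike, which called Igk and the macrophage gene Lyz2 as higher.

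Neighbouring decoy receptors for the death ligand TRAIL, Tnfrsf22 and Tnfrsf23, were both lower. Tnfrsf22 read 9.98 on the OVX array of mBCSPs and was at the floor with estradiol, and in mSSCs it read 9.88 and 6.22. Tnfrsf23 went from 9.11 to 6.68 and from 8.51 to 6.88. The sham arrays stood near those of OVX for both genes (9.75 and 9.82 for Tnfrsf22, 8.87 and 8.33 for Tnfrsf23) and the OVX + E2 arrays were the lowest of these 6. Among the 8 callus arrays outside the comparison the lowest, an mBCSP array without stated surgery, read 6.94 for Tnfrsf22 and 6.67 for Tnfrsf23, the latter as low as with estradiol. Fitted differences were -3.85 (SE 0.72, adjusted p = 0.285) and -2.03 (SE 0.51, adjusted p = 0.745). Adjacent genes that moved together occurred 6 times among the agreeing genes, the lower pairs being Tnfrsf22 with Tnfrsf23 and G530011O06Rik with Erdr1. Ptprv, a receptor-type phosphatase known from osteoblasts, read 10.28 and 10.33 on the OVX, 7.99 and 8.62 on the OVX + E2 and 9.60 and 9.57 on the sham arrays, while callus arrays outside the comparison went down to 7.30 (fitted difference -2.0, SE 0.33, adjusted p = 0.194).

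Of the 25 lower genes, 24 are on no list and 0 followed the blood mean. The one list member was Adipoq, the adipokine adiponectin, which read 7.52 in mBCSPs and 7.11 in mSSCs with OVX, was at the floor with estradiol and stood at 6.20 and 6.34 in sham callus. Of the other adipocyte genes tested, Fabp4, the lipid carrier, differed by 0.32 and 0.01, and Pparg, the master factor of fat cell formation, by -0.21 and -0.48. Remaining lower genes included Kcnj13, a potassium channel (-1.41 and -2.81), Stard6, of the lipid transfer family (-2.05 against the floor in mBCSPs, and -1.41), and Tmem87a, a Golgi membrane protein (-1.24 and -1.55). Other probe sets that reached the filter existed for 8 of the lower genes, 10 sets in all, and 8 of these were lower and 0 higher in both populations. For the higher genes, 53 of 75 such sets were higher and 3 lower in both populations. Fewer passed 2-fold the same way in both populations, 18 of the 75 for higher genes and 3 of the 10 for lower genes. These 3 were all sets of Sh3d19.

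**Figure D4:**
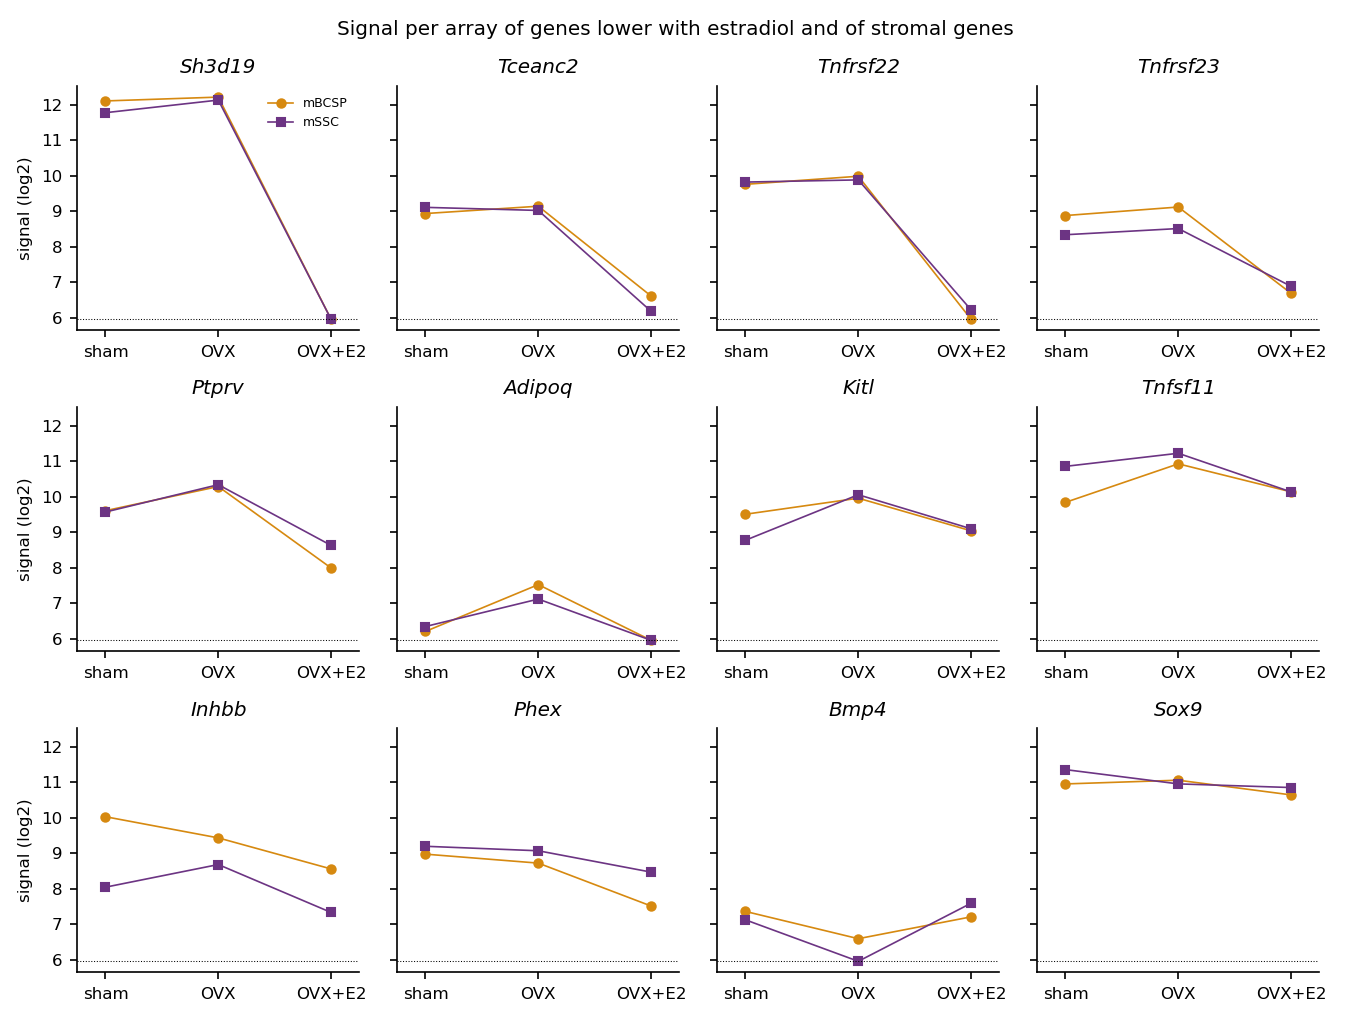
Log2 signal (y axis) of 6 genes lower with estradiol in both populations and of 6 stromal genes on the sham, OVX and OVX + E2 callus arrays (x axis) of mBCSPs (circles) and mSSCs (squares), 1 array per point; the dotted line is the floor (5.95). Sh3d19 drops from above 12 to the floor, while the stromal genes Kitl, Tnfsf11, Inhbb and Phex are lower, Bmp4 higher and Sox9 nearly level.

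Stromal genes moved little, and some signals for blood and bone cells that skeletal stroma sends were lower on their brightest probe sets. Kitl, the stem cell factor that maintains blood progenitors, read 9.95 and 10.05 on the OVX, 9.03 and 9.09 on the OVX + E2 and 9.50 and 8.77 on the sham arrays of mBCSPs and mSSCs. Its fitted difference was -0.94 (adjusted p = 1), but it ranged from -1.74 to -0.14 when 1 of the 4 arrays was left out, being -0.14 without the mSSC and -1.74 without the mBCSP array of OVX. The other probe sets of Kitl were also lower in both populations. In the marrow niche list 0 of 13 genes were higher and 9 lower in both populations, among them Angpt1, a ligand of Tie2 (-0.59 and -0.80), Ebf1, a factor of niche stroma (-0.37 and -0.28), Grem1, a BMP antagonist (-1.26 and -0.24), and Lepr, the leptin receptor (-0.19 and -1.01). Cxcl12, the chemokine that retains leukocytes and blood stem cells, differed by -0.19 and -0.07. The list had medians of -0.19 and -0.14.

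In the osteoblast list 7 of 21 genes were higher and 9 lower in both populations, none by 2-fold in both. Tnfsf11, the RANK ligand that drives osteoclast formation, read 10.92 and 11.22 with OVX and 10.13 and 10.13 with estradiol, with sham at 9.84 and 10.85. Its fitted difference was -0.94 (unadjusted p = 0.0108, adjusted p = 1), and its direction was thus opposite to that of the osteoclast genes Atp6v0d2 and Acp5 on the same arrays. Phex, an endopeptidase of mineralizing osteoblasts and osteocytes, differed by -1.21 and -0.60. Another probe set differed by 0.06 and -0.71 for Tnfsf11 and by 0.43 and -0.08 for Phex. Neither gene was thus lower in both populations on that set. Pth1r, the receptor of parathyroid hormone, stood at 13.21 and 13.16 with OVX and 13.66 and 13.62 with estradiol, close to sham (13.80 and 13.84). Matrix genes hardly differed, with Col1a1, the main collagen of bone, at 0.21 and -0.08 and Ibsp, bone sialoprotein, at -0.01 and -0.11.

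Cartilage genes were higher in both populations for 15 of 28 and lower for 5, by small amounts (medians 0.15 and 0.06). Col11a2, a cartilage collagen chain, read 12.04 and 11.88 with OVX, 12.76 and 12.30 with estradiol and 12.73 and 12.67 in sham callus. Fgfr3, a receptor that restrains chondrocyte growth, differed by 0.44 and 0.71. Sox9, the master regulator of cartilage, differed by -0.41 and -0.10. Contractile genes were higher in both populations for 9 of 16, Tagln, an actin-binding protein of smooth muscle, by 0.40 and 0.30.

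Among growth factor pathways, Bmp4, a bone morphogenetic protein, went from 6.59 to 7.20 in mBCSPs and from the floor to 7.59 in mSSCs, a difference of at least 1.64, with sham at 7.36 and 7.12. Inhbb and Inhba, the activin beta subunits, were lower, Inhbb at 9.43 and 8.55 in mBCSPs and 8.68 and 7.33 in mSSCs, and Inhba by -0.93 and -0.70. Their other probe sets went opposite ways in the populations, by -0.13 and 0.35 for Inhbb and by -0.22 and 0.62 for Inhba. The BMP and TGF-beta list as a whole was split, with 8 of 29 genes higher and 9 lower in both populations. Of 13 hedgehog genes 6 were higher and 4 lower. Wnt genes were higher for 6 of 26 and lower for 7, with Wnt5b, a noncanonical ligand, at 0.47 and 0.61, Rspo3, which amplifies Wnt signals, at 0.44 and 0.94, and the related Rspo2 at -0.60 and -0.48. Another probe set differed by 0.76 and 0.29 for Wnt5b, but by 0.06 and 0.10 for Rspo2. By limma the unadjusted p was under 0.05 for 2 of the 221 stromal genes, Tnfsf11 and Inhba, both lower. Among all genes tested it was under 0.05 for 1.57% higher and 0.724% lower, so the stromal count does not stand out. On the same arrays the mean of the 75 blood genes was 1.08 (mBCSPs) and 1.58 (mSSCs) higher with estradiol. With that mean as a term of the fit, the fitted differences of Inhbb, Adamts1, Bmpr1a, Rspo2, Frzb and Gli1 changed sign. The other stromal genes described in full kept theirs. The mean and the treatment moved together on these arrays, so that fit cannot divide the stromal differences between them, and a cause was not tested.

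Estrogen receptors themselves differed little or not in the same way. Esr1 read 9.61 on the OVX and 8.63 on the OVX + E2 array of mBCSPs but 9.11 and 9.14 on those of mSSCs, with sham at 8.58 and 8.48. Its other probe sets were lower with estradiol in mBCSPs (-1.12 and -1.47) and higher in mSSCs (0.98 and 2.02), so that the level values in mSSCs hold for the brightest probe set alone. Esr2 was at 7.82 and 7.65 in mBCSPs and 7.55 and 7.25 in mSSCs, with sham at 7.23 and 7.79. Over the 17 arrays it ran from 7.13 to 8.42, close to the filter level of 7.20, so its small differences say little about the receptor. Gper1, a membrane receptor for estradiol, differed by 0.34 and 0.17. Of 19 genes known as estrogen targets in other tissues, 6 were higher and 9 lower in both populations, and 1, Ltf, passed 2-fold. Greb1, a classic target of the receptor, differed by 0.10 and 0.75, Tff1 by -0.28 and -0.11, and Car12, a carbonic anhydrase, by 0.52 and 0.54.

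Sterol and fatty acid synthesis genes were higher in both populations for 12 of 21 and lower for 1, with medians of 0.30 and 0.19. Dhcr7, which makes cholesterol in the last step of one route, read 9.53 and 9.10 with OVX, 10.60 and 10.49 with estradiol and 9.89 and 9.50 in sham callus (fitted difference 1.23, SE 0.50, adjusted p = 1). Fdft1, squalene synthase, went from 10.55 to 11.19 and from 10.62 to 11.23. In both genes the OVX + E2 arrays were the highest of the 6. Interferon-response and MHC class I genes were higher for 15 of 24 and lower for 1, among them Ifi27l2a (0.98 and 0.82) and Ifit1 (0.58 and 0.74). Of 26 cell cycle genes 12 were higher and 2 lower, including the mitotic kinase Plk1 (0.68 and 0.81) and Cdc20, an activator of the anaphase-promoting complex (0.46 and 0.69), whereas Mki67, the proliferation marker Ki-67, differed by -0.19 and 0.15. Secretory pathway genes ran the other way, 6 of 23 higher and 11 lower. Of 20 chemokines 10 were higher and 5 lower, Ccl6, a product of myeloid cells, by 1.39 and 1.54. Across the arrays outside the comparison Plk1 (r 0.797), Ifi27l2a (0.800) and Ccl6 (0.978) followed the blood gene mean. Cdc20 (0.615) and Ifit1 (0.697) fell short of 0.7, and Dhcr7 (-0.689) and Fdft1 (-0.613) had negative correlations. Which cells carried these differences was not tested.

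Markers of the sort were as follows. Itgav, the alphaV integrin selected for, read 12.45 and 12.20 in mBCSPs and 12.19 and 12.16 in mSSCs, about level. Tek (Tie2), which is selected against, differed in opposite ways, by 0.87 in mBCSPs and -1.24 in mSSCs. Eng (CD105), the marker that separates mBCSPs, stood at 9.10 and 9.19 in mBCSPs and lower, at 7.69 and 7.36, in mSSCs, while Cd200 stood at 11.33 and 11.50 in mBCSPs and at 11.82 and 12.28 in mSSCs. Enpep (6C3) was lower in both populations, at 8.82 and 8.01 in mBCSPs and 8.43 and 7.98 in mSSCs. Its sham arrays read 8.74 and 6.63. Thy1 was dim, at 6.92 and 6.91 in mBCSPs and 6.72 and 6.99 in mSSCs. Endothelial genes were higher in both populations for 9 of 19 and lower for 0. Cdh5, the cadherin of vessel walls, went from 9.0 to 9.80 in mBCSPs and from 6.93 to 7.75 in mSSCs, with sham at 10.32 and 7.88. Another probe set of Cdh5 went opposite ways, by 0.43 and -0.72. Skeletal muscle and Schwann cell genes had medians between 0.00 and 0.23. Only Ptprc of the 7 sort markers passed 2-fold in both populations, on its brightest probe set and not on the other.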

How the data were processed

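RNA of sorted mSSCs and mBCSPs was hybridized to Affymetrix mouse 430 2.0 arrays. Per the methods it was amplified by RiboAmp and processed in dChip and Gene Expression Commons, whereas the submitters' processing notes name MAS5 (no version), so the tool behind the deposited log2 values is not settled. Of 45101 probe sets, 64 controls were left out, 34945 carried 1 symbol, 932 several and 9160 none; gene ids matched GRCm38.p6 for 34741. Here values were quantile normalized, given a lower limit of 5.95 (20th percentile, called the floor), and reduced to the brightest probe set per gene (18193). A gene entered the tests if 2 or more arrays reached the 40th percentile, 7.20 (14504 genes).

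One limma fit (3.58.1, R 4.3.3; lmFit, eBayes with trend) held all 17 arrays, with group, population and title form as terms (10 coefficients, 7 residual degrees of freedom, prior median 4.06) and Benjamini-Hochberg adjustment at 0.05. The 2 callus arrays whose labels conflict formed a group of their own. P-values measure the spread between these arrays, not between mice. The number of arrays limits the precision.

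Named genes were the called genes, the 12 with the largest smaller difference in each direction over all genes and within stromal lists, 12 higher in blood lists, up to 4 of any other list, sort markers and receptors; others are named as chosen after their values were seen or as list examples. Members and the 36 lists (631 of 687 genes had a named probe set, 603 were tested) were chosen with earlier results of these data known. The fit was tested on simulated data. Alternatives changed normalization, floor, filter, probe set, samples, terms and moderation.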

Additional observations from a re-analysis of the deposited data

Results flagged for a closer look

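For 17 genes the difference between OVX + E2 and OVX callus went one way in mBCSPs and the opposite way in mSSCs, each past 2-fold. With 1 array per treatment and population the difference between populations was not tested. The 10 genes given here are the 5 in each direction whose smaller difference was largest. Their values are those of the brightest probe set. Cxadr, Mfap3l and Rab27a had other probe sets that reached the filter, and none of these went opposite ways past 2-fold. A set of Cxadr (-0.14 and -0.58) and a set of Rab27a (-0.12 and -0.12) were lower in both populations. Cxadr, a junctional adhesion protein, stood at 1.18 in mBCSPs and -2.44 in mSSCs, and Mapk10, a stress-activated kinase, at 2.0 or more and -1.14. Ccdc25 stood at 1.12 or more and -1.37 or below. Cth, an enzyme of cysteine synthesis, had 1.08 and -1.15, and Trim9 1.06 and -1.24. In the other direction Mfap3l stood at -1.64 in mBCSPs and 1.98 in mSSCs. AB124611 stood at -1.26 or below and 2.34 or more, and Efhd1 at -2.79 or below and 1.25. Bounds are given where an array was at the floor. Stap1, an adaptor of blood cells, had -1.23 and 2.18, and Rab27a, a GTPase of granule secretion, -1.21 and 1.77. Across the 13 arrays outside the comparison, AB124611, Stap1 and Rab27a followed the mean of the 75 blood genes (r of 0.957, 0.980 and 0.896). The rest of the genes given here did not reach an r of 0.7.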

How the results depend on the processing

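The 3 calls between OVX + E2 and OVX callus became 13 with the floor at the 40th percentile, 8 without the callus arrays of unstated surgery and 8 without the mBCSP array of these alone (both chosen after seeing the data; Bst1, Cxcr4, Gdpd3, Shisa4 and Tnfrsf22 were then called too). There were 0 calls with the filter on the 4 arrays, with the 4 arrays only, with no title form term and with the blood mean as covariate, and 0 to 0 on leaving out each of the 4 arrays, where the lone array of a treatment is assumed to vary like the other groups. At an unadjusted p under 0.05 the fit on all arrays gave 227 higher and 105 lower genes. The 114 higher genes became 51 with the filter on the 4 arrays, 329 at 1.5-fold and 16 at 4-fold. The 25 lower genes became 16 with the floor at the 40th percentile, 7 with the filter on the 4 arrays, 47 with the probe set of widest range, 122 at 1.5-fold and 3 at 4-fold. The median of blood-lineage genes (0.59) stood at 0.32 with the higher floor, 0.42 without a filter and 1.0 with the filter on the 4 arrays. The median of stromal genes (0.0047) stood at 0.012 after median centring and 0.014 in mBCSPs alone. With the blood mean as covariate the log2 fold change turned to 0.029 for Adamts1, 0.081 for Bmpr1a, -0.38 for Frzb, -0.055 for Gli1, 0.39 for Inhbb and 0.16 for Rspo2. Of the 60 genes described in full, none other turned under any alternative. No paired analysis was possible because the replicate numbers were given in accession order and stand for the populations, which the fit already holds as a term. Values at the floor are bounds.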
